A study of Mus musculus with 13 samples.

Results

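The genes described here are 8 Toll-like receptor genes of the mouse (Tlr1, Tlr2, Tlr3, Tlr4, Tlr6, Tlr7, Tlr8 and Tlr9) and 2 genes whose proteins work with them, Cd14 and Ly96. They were chosen by gene name among the non-control probes of the scanner files. The rule found 10 genes with 12 probes, of 20891 genes tested and 41174 non-control probes in all. All 12 probes were well above background on all 13 arrays, so no receptor gene was lost to the filter on dim probes.

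RNA came from macrophages grown from the bone marrow of male C57BL/6 mice aged 12 to 16 weeks, cultured for 6 days in medium with 30% L929 conditioned medium, a source of macrophage growth factor. Control cells carried floxed HDAC3, with loxP sites around exons 4 to 7, and no Cre is named for them. Knockout (KO) cells carried the same floxed gene and a Cre recombinase driven by the lysozyme M promoter, which is active in myeloid cells, so Cre and the loss of HDAC3 cannot be told apart. The HDAC3 protein removes acetyl groups from histones as a subunit of corepressor complexes. Cells received 0.1% bovine serum albumin (vehicle, which the sample titles call no treatment) or IL-4 at 10 ng/mL for 24 hours. IL-4 is a cytokine of type 2 immunity that drives alternative activation. There were 4 arrays for control vehicle, numbered 1 to 4 after the titles, and 3 each for KO vehicle (5, 6 and 7), IL-4-treated controls (9, 10 and 12) and KO IL-4 (13, 14 and 15). No label says that arrays of a group were different mice or cultures, so the p-values reflect the spread of these samples alone, and that spread may be technical.

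Toll-like receptors are membrane proteins that bind conserved molecules of microbes and start the transcription of inflammatory genes. Tlr4 binds bacterial lipopolysaccharide together with MD-2, the product of Ly96, and CD14 delivers the lipopolysaccharide to that pair. Tlr2 pairs with Tlr1 or Tlr6 at the cell surface to bind bacterial lipoproteins. Tlr3, Tlr7, Tlr8 and Tlr9 sit in endosomes, where Tlr3 binds double-stranded RNA, Tlr7 and Tlr8 bind products of single-stranded RNA, and Tlr9 binds DNA with unmethylated CpG. Macrophages use all of these pathways to detect infection. Most of the receptors signal through the adaptor MyD88, Tlr3 signals through TRIF, and Tlr4 uses both.

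Levels below are log2 values in which 0 is the array's 75th percentile, so a level of 2 is 4 times that percentile. A level belongs to its own probe, and levels of different probes are not compared. A difference was called at an adjusted p under 0.05 (limma, Benjamini-Hochberg over 20891 genes). Hdac3, measured as the targeted gene, lay between -4.02 and -3.12 on the 6 KO arrays and between -2.28 and -1.70 on the 7 control arrays. Its signal in KO cells was 37.7% of control in vehicle (adjusted p = 0.00295, limma) and 34.9% under IL-4 (adjusted p = 0.00397, limma), with the probe not well above background on KO IL-4 15. Whether the probe lies inside the deleted exons is unknown here. The share of spots well above background ran from 56.2% (control vehicle 4) to 83.2%, and was next lowest on KO IL-4 15 (61.1%). The median SD over genes ran from 0.149 (KO vehicle) to 0.245 (KO IL-4), and 1 spread per gene was shared over all groups in the fit. The 4 slides hold every group at a single position that no other group uses, so array position and group cannot be told apart.

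IL-4 lowered Cd14 and Tlr2 in both genotypes and Tlr7 in control cells. HDAC3 loss lowered Tlr3 with and without IL-4, and left Cd14 1.85-fold higher under IL-4 than in control cells given IL-4. Of 29 alternative ways to process the data, 12 lost the Tlr7 call and 8 the Tlr3 call in vehicle. The Tlr2 call in KO cells was lost in 3, and the Tlr3 and Cd14 calls for HDAC3 loss under IL-4 in 2 each. Ly96, Tlr4, Tlr6 and Tlr9 were called in no comparison. Tlr1 and Tlr8 were called only between groups that differed in both genotype and treatment.

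**Figure D1:**
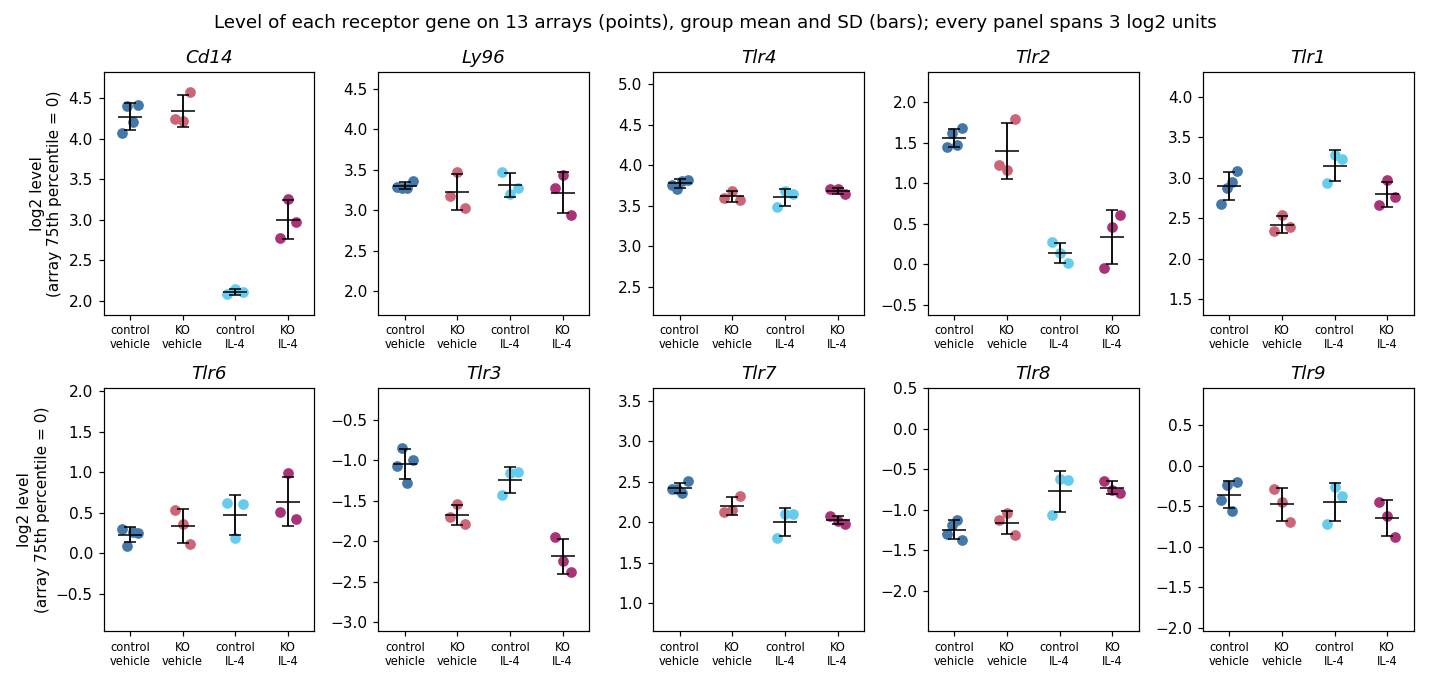
Log2 level of the 10 receptor genes (vertical axes, 0 = the array's 75th percentile) on each array (points) in the 4 groups (horizontal axes), with group means and SD as bars. Every panel spans the same number of log2 units, so distances can be compared between panels. The 3 control IL-4 arrays lie between 2.08 and 2.15 for Cd14, below every other array, and the 3 KO IL-4 arrays lie between -2.38 and -1.95 for Tlr3, also below every other array.

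The lipopolysaccharide receptor genes did not move together. The level of Cd14, the co-receptor, was 4.07, 4.40, 4.21 and 4.41 on the control vehicle arrays and 4.24, 4.22 and 4.58 on the KO vehicle arrays. It was 2.08, 2.15 and 2.11 on the control IL-4 arrays and 2.77, 3.25 and 2.97 on the KO IL-4 arrays. All IL-4 arrays were below all vehicle arrays, and every KO IL-4 array was above every control IL-4 array, while the vehicle groups overlapped. In control cells IL-4 lowered Cd14 4.47-fold (log2 fold change -2.16, SE 0.138, adjusted p = 4.86e-06, limma). In KO cells it lowered Cd14 2.54-fold (log2 fold change -1.35, SE 0.147, adjusted p = 0.000544, limma). Fewer cells that express a gene and less RNA per cell cannot be told apart in these bulk samples.

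The effect of HDAC3 loss on Cd14 was called under IL-4 and not in vehicle. In vehicle, the log2 fold change of KO over control was 0.073 (95% interval -0.23 to 0.37, adjusted p = 0.968, limma). Under IL-4 it was 0.89 (SE 0.147, adjusted p = 0.00616, limma), a rise, and a fit of the IL-4 groups alone gave an adjusted p of 0.0896 (limma). Within slides 1 and 2, which hold both IL-4 groups, the KO array was higher by 0.70 and by 1.11. The difference between the 2 IL-4 responses (the interaction) was 0.82 on the log2 scale (SE 0.202) with an unadjusted p of 0.0018, but an adjusted p of 0.752 over all genes (limma), so a smaller Cd14 response in KO cells was not called. In order, the group means were 2.11 ± 0.035 (SD, n = 3) in control IL-4, 3.00 ± 0.24 (n = 3) in KO IL-4, 4.27 ± 0.17 (n = 4) in control vehicle and 4.35 ± 0.20 (n = 3) in KO vehicle arrays, and the last pair did not differ beyond its spread. The Cd14 probe lies at chromosome 18, 36884969 to 36885028, minus strand (mm9).

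Ly96, which encodes MD-2, was called in no comparison. Its level was 3.29, 3.28, 3.28 and 3.37 in control vehicle, 3.18, 3.47 and 3.03 in KO vehicle, 3.48, 3.20 and 3.27 in control IL-4, and 3.28, 3.44 and 2.95 in KO IL-4 arrays. Every pair of groups overlapped. The IL-4 difference in control cells was 0.012 (95% interval -0.29 to 0.31), an interval that does not reach the change of Cd14. The other Ly96 differences were -0.0074 for IL-4 in KO cells, -0.077 for HDAC3 loss at rest and -0.096 under IL-4, none called. The Ly96 probe maps to chromosome 1, 16696289 to 16699561, plus strand (mm9), a span of 3273 bases for a probe of 60.

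Tlr4, the signalling receptor for lipopolysaccharide, had the smallest range of the 10 genes over the 13 arrays. Its level was 3.76, 3.71, 3.81 and 3.82 on the control vehicle arrays, 3.59, 3.68 and 3.56 in KO vehicle, 3.48, 3.68 and 3.64 in control IL-4, and 3.70, 3.70 and 3.64 in KO IL-4. Control vehicle arrays were above all other arrays, by a small distance. The difference was -0.17 for IL-4 in control cells (95% interval -0.349 to 0.0082, adjusted p = 0.372, limma) and -0.16 for HDAC3 loss in vehicle (95% interval -0.338 to 0.019, adjusted p = 0.455, limma), so neither was called although the groups did not overlap. It was 0.067 for IL-4 in KO cells and 0.077 for HDAC3 loss under IL-4. The array carries this probe in 10 spots, and their SD within an array was 0.0365 to 0.0539. The probe lies at chromosome 4, 66503724 to 66503782, plus strand (mm9). A second probe that the files also name Tlr4 was designed on a different transcript and lies at 66590556 to 66590615 of that chromosome. It was called in no comparison, with log2 fold changes of 0.027 and -0.17 for IL-4 in control and KO cells and 0.10 and -0.091 for HDAC3 loss without and with IL-4.

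Tlr2, the lipoprotein receptor, fell under IL-4 in both genotypes. Its RefSeq promoter is shown because this gene had the largest change among the receptors whose promoter window was taken, which leaves out Cd14. The 250 bases before its start (GRCm38.p6, chr3:83841609-83841858, minus strand) follow 5′ to 3′, with matches to an NF-kB site in capitals. NF-kB is the factor through which these receptors induce inflammatory genes.
Tlr2: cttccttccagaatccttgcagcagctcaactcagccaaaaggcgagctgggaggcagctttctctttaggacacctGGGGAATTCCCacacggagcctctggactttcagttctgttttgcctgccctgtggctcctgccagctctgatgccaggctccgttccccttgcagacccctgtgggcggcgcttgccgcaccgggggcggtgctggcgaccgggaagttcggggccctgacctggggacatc
The capitals hold 2 overlapping matches, starting 173 and 172 bases before the start. Of 32851 promoter windows of this length, 7.25% hold a match on either strand. No match to an interferon response element core (GAAA and GAAA with 2 bases between), a STAT6 site (TTC and GAA with 4 bases between), an AP-1 site (TGANTCA) or a PU.1 core (GAGGAA) was found in this window on either strand.

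The Tlr2 level was 1.45, 1.63, 1.47 and 1.68 on control vehicle arrays and 1.23, 1.17 and 1.79 on KO vehicle arrays. It was 0.27, 0.14 and 0.020 on control IL-4 arrays and -0.045, 0.45 and 0.60 on KO IL-4 arrays. Every IL-4 array was below every vehicle array, and the genotypes overlapped in both media. IL-4 lowered Tlr2 2.66-fold in control cells (log2 fold change -1.41, SE 0.179, adjusted p = 0.000555, limma). In KO cells it lowered Tlr2 2.09-fold (log2 fold change -1.06, SE 0.191, adjusted p = 0.0128, limma), a call lost without KO vehicle 7 (-0.86, adjusted p = 0.0516, limma), with median scaling (adjusted p = 0.0512, limma) and in a fit of the KO groups alone (adjusted p = 0.187, limma). HDAC3 loss gave -0.16 in vehicle (95% interval -0.55 to 0.23) and 0.19 under IL-4 (95% interval -0.23 to 0.61), neither called. The interaction was 0.35 (95% interval -0.22 to 0.93). The Tlr2 probe was also printed in 10 spots, whose SD within an array was 0.0345 to 0.0653, and lies at chromosome 3, 83640344 to 83640403, minus strand (mm9).

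The partners of Tlr2 did not fall with it. The level of Tlr1, which pairs with Tlr2 for triacylated lipoproteins, was 2.67, 2.87, 2.95 and 3.09 in control vehicle, 2.34, 2.53 and 2.39 in KO vehicle, 2.94, 3.28 and 3.24 in control IL-4, and 2.67, 2.97 and 2.76 in KO IL-4 arrays. The KO vehicle arrays were the lowest, below every other array. HDAC3 loss in vehicle gave a log2 fold change of -0.47 (SE 0.128), just outside the threshold (adjusted p = 0.0616, limma), and 9 of 29 alternatives called it, with adjusted p down to 0.0155 (limma). It was -0.35 under IL-4 (adjusted p = 0.236, limma). The IL-4 difference was 0.26 in control and 0.38 in KO cells, not called. Between control IL-4 and KO vehicle, the highest and lowest groups, Tlr1 was called higher (log2 fold change 0.73, SE 0.136, adjusted p = 0.00756, limma). The Tlr1 probe lies at chromosome 5, 65316115 to 65316174, minus strand (mm9).

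Tlr6, the partner of Tlr2 for diacylated lipoproteins, was 0.30, 0.09, 0.26 and 0.25 in control vehicle, 0.53, 0.35 and 0.11 in KO vehicle, 0.62, 0.19 and 0.61 in control IL-4, and 0.51, 0.98 and 0.41 in KO IL-4 arrays. The KO IL-4 arrays were above all control vehicle arrays, and all other pairs of groups overlapped. Its differences were 0.25 and 0.31 for IL-4 in control and KO cells and 0.10 and 0.16 for HDAC3 loss without and with IL-4. None was called, and the 95% interval for IL-4 in control cells was -0.11 to 0.60. The Tlr6 probe lies near Tlr1 on chromosome 5, 65344365 to 65344424, minus strand (mm9).

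**Figure D2:**
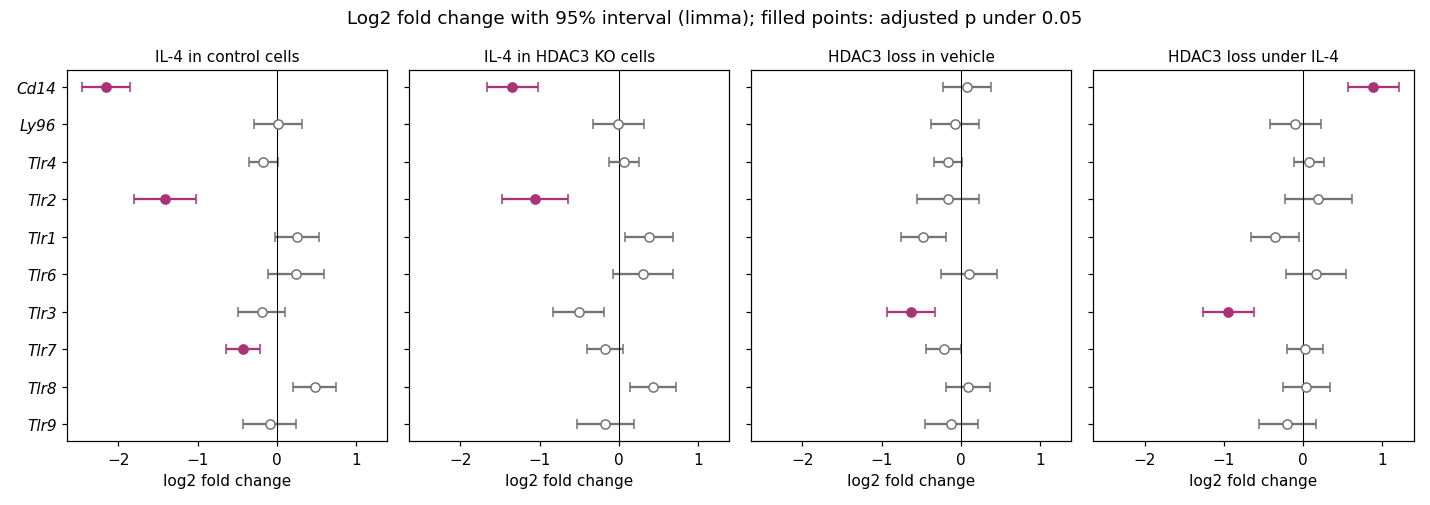
Log2 fold change (horizontal axes) with its 95% interval for each receptor gene (vertical axis) in 4 comparisons, from limma. Filled points passed an adjusted p under 0.05: Cd14, Tlr2 and Tlr7 for IL-4 in control cells, Cd14 and Tlr2 for IL-4 in KO cells, Tlr3 for HDAC3 loss in vehicle, and Cd14 and Tlr3 for HDAC3 loss under IL-4.

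Among the endosomal receptors, Tlr3 was the gene that fell with HDAC3 loss. Its promoter window is shown for that reason (GRCm38.p6, chr8:45410381-45410630, minus strand), with the match to an NF-kB site in capitals.
Tlr3: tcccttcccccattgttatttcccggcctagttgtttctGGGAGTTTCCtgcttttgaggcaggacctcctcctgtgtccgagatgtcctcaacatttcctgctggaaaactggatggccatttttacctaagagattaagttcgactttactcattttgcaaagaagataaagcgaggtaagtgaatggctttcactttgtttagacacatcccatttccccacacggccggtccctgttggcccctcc
The match starts 211 bases before the start. The interferon response element core, found in 2.98% of promoter windows, has no match here, and neither have the STAT6 site (5.85%), the AP-1 site (6.75%) and the PU.1 core (23.3%).

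The level of Tlr3, the receptor for double-stranded RNA, was -1.07, -0.85, -1.29 and -1.002 on control vehicle arrays and -1.70, -1.55 and -1.79 on KO vehicle arrays. It was -1.43, -1.16 and -1.14 on control IL-4 arrays and -1.95, -2.24 and -2.38 on KO IL-4 arrays. KO arrays were below control arrays in each medium, with no overlap. In vehicle, HDAC3 loss lowered Tlr3 to 64.7% of control (log2 fold change -0.63, SE 0.137, adjusted p = 0.0225, limma) and to 52.0% under IL-4 (log2 fold change -0.94, SE 0.146, adjusted p = 0.00411, limma). The call in vehicle was lost when any of 6 arrays was left out (control vehicle 1, 2 or 4, or KO vehicle 5, 6 or 7), with log2 fold changes of -0.69 to -0.56 and adjusted p from 0.0534 to 0.102 (limma). The call under IL-4 stayed when any 1 of the 13 arrays was left out, but was lost in a fit of the IL-4 groups alone (adjusted p = 0.0886, limma). Within slides the vehicle difference was -0.70 to -0.51 on 3 slides, and the difference under IL-4 was -1.08 and -0.52 on 2 slides.

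A second Tlr3 probe gave the same directions for HDAC3 loss. It read -1.52, -1.43, -1.48 and -1.44 in control vehicle, -2.01, -1.85 and -1.97 in KO vehicle, -1.76, -1.48 and -1.44 in control IL-4, and -2.44, -2.49 and -2.77 in KO IL-4 arrays. When all probes were fitted one by one, HDAC3 loss lowered it by 0.47 in vehicle (adjusted p = 0.034, limma) and by 1.01 under IL-4 (adjusted p = 0.000875, limma). The probes differed on IL-4 in KO cells. There the second probe fell by 0.63 (adjusted p = 0.0181, limma), while the first gave -0.51 (SE 0.146) with an adjusted p of 0.123 (limma), although its groups did not overlap. IL-4 in control cells gave -0.19 and -0.090 on the 2 probes, not called. The probes lie at chromosome 8, 46481729 to 46481788 and 46482009 to 46482068, minus strand (mm9).

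**Figure D3:**
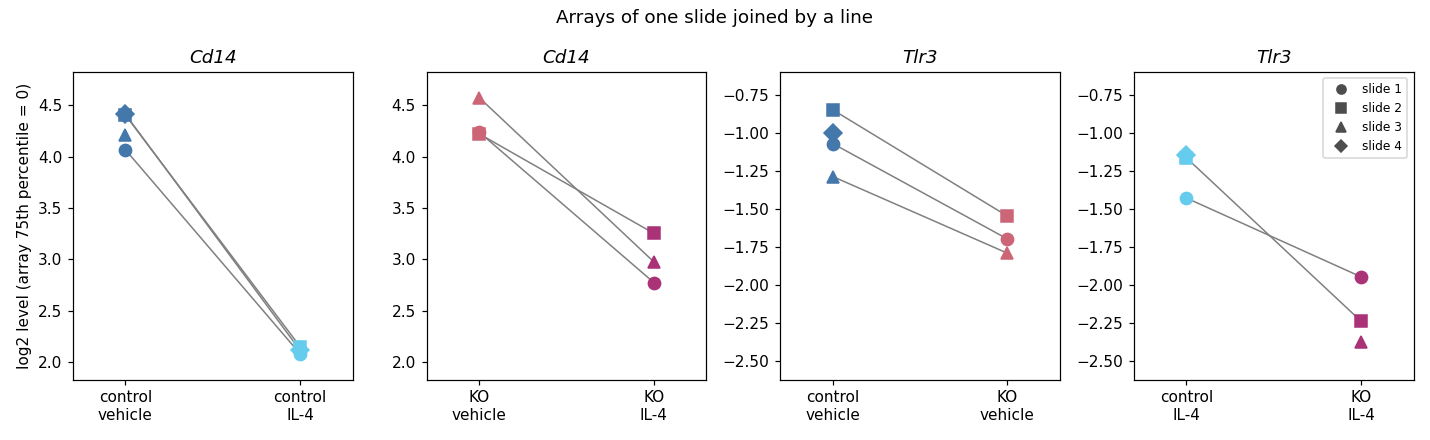
Log2 level (vertical axes, 0 = the array's 75th percentile) of Cd14 in the vehicle and IL-4 groups of each genotype, and of Tlr3 in both genotypes within each medium, with arrays of 1 slide joined by a line. Every line falls: Cd14 by 1.99 to 2.30 in control cells and by 0.97 to 1.60 in KO cells with IL-4, and Tlr3 by 0.51 to 0.70 in vehicle and by 0.52 and 1.08 under IL-4 with HDAC3 loss.

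The level of Tlr7, a sensor of single-stranded RNA, was 2.41, 2.41, 2.36 and 2.51 on control vehicle arrays, 2.13, 2.16 and 2.33 in KO vehicle, 1.80, 2.10 and 2.10 in control IL-4, and 2.08, 2.02 and 1.98 in KO IL-4. The vehicle controls were above all other arrays. IL-4 lowered Tlr7 1.34-fold in control cells (log2 fold change -0.42, SE 0.0985, adjusted p = 0.0262, limma). That call was lost when any of 6 arrays was left out (control vehicle 1, 2, 3 or 4, or control IL-4 9 or 12), with log2 fold changes of -0.47 to -0.32 and adjusted p from 0.0503 to 0.106 (limma), and with median scaling (adjusted p = 0.144, limma), no filter (0.0578), slide as a block (0.0614) or only the control groups (0.089). The other differences were -0.18 for IL-4 in KO cells, -0.22 for HDAC3 loss at rest and 0.027 under IL-4, not called. The Tlr7 probe lies on chromosome X, 163743189 to 163743248, minus strand (mm9).

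Tlr8, a relative of Tlr7, also lies on chromosome X. Its promoter window (GRCm38.p6, chrX:167264330-167264579, minus strand) is shown because it is the only one of the 8 windows found, over 6 receptor genes, that holds a match to a STAT6 site, STAT6 being the factor that IL-4 activates. The capitals mark that match, which overlaps a PU.1 core match on the opposite strand and starts 77 bases before the start.
Tlr8: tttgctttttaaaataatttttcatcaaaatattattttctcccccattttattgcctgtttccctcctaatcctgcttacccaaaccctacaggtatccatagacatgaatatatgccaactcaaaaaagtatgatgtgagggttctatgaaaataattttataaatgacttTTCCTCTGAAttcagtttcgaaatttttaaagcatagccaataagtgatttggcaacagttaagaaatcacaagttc
Of all promoter windows of this length, 5.85% hold a STAT6 site match and 23.3% a PU.1 core match, on either strand. A match is a description of these letters and no evidence of binding. Promoter entries were matched for Tlr1, Tlr2, Tlr3, Tlr6, Tlr8 and Tlr9 and not for Cd14, Ly96, Tlr4 and Tlr7.

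The Tlr8 level was -1.30, -1.19, -1.12 and -1.38 in control vehicle, -1.13, -1.04 and -1.31 in KO vehicle, -1.06, -0.62 and -0.63 in control IL-4, and -0.64, -0.75 and -0.80 in KO IL-4 arrays. In each genotype every IL-4 array was above every vehicle array. The log2 fold change for IL-4 was 0.47 in control cells (SE 0.125, adjusted p = 0.0502, limma) and 0.43 in KO cells (SE 0.134, adjusted p = 0.164, limma), neither called, although 7 of 29 alternatives called the first, with adjusted p down to 0.000854 (array weights, limma). Tlr8 was called higher in KO IL-4 than in control vehicle arrays (log2 fold change 0.52, SE 0.125, adjusted p = 0.0184, limma), but not without control vehicle 4 (adjusted p = 0.0544, limma) or without KO IL-4 13 (adjusted p = 0.0599, limma). HDAC3 loss gave 0.088 in vehicle and 0.042 under IL-4. The probe lies on chromosome X, 163680715 to 163680774, minus strand (mm9).

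Tlr9, the receptor for CpG DNA, was -0.43, -0.24, -0.56 and -0.20 in control vehicle, -0.29, -0.45 and -0.69 in KO vehicle, -0.72, -0.27 and -0.37 in control IL-4, and -0.44, -0.61 and -0.88 in KO IL-4 arrays. All pairs of groups overlapped. Its differences were -0.093 and -0.17 for IL-4 in control and KO cells and -0.12 and -0.20 for HDAC3 loss without and with IL-4, none called. The 95% intervals reached -0.43 to 0.25 for IL-4 in control cells and -0.56 to 0.16 for HDAC3 loss under IL-4. The probe lies at chromosome 9, 106128979 to 106129038, plus strand (mm9). For all 12 probes, the place in an exon, intron or UTR was not determined. The longest run of bases shared by probes of 2 receptor genes was 8.

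Counted together, IL-4 in control cells lowered 3 of the 10 receptor genes and raised none, where 5.64% of all genes were called (2.76% higher and 2.88% lower). Its 2 groups were fully apart for 5 of 10, as for 16.7% of all genes. IL-4 in KO cells lowered 2 of 10 and raised none, where 2.17% of all genes were called (1.16% higher and 1.01% lower), and the groups were apart for 6 of 10, as for 18.3% of all genes. In vehicle, HDAC3 loss lowered 1 of 10 and raised none, where 4.68% of all genes were called (2.42% higher and 2.25% lower), and the groups were apart for 4 of 10, as for 16.9% of all genes. With IL-4 present, HDAC3 loss lowered 1 and raised 1, where 3.64% of all genes were called (2.03% higher and 1.60% lower), and the groups were apart for 2 of 10, as for 17.8% of all genes. The median log2 fold change over the 10 genes was -0.13, -0.089, -0.14 and 0.034 in these comparisons, beside 0.010, -0.045, 0.025 and -0.021 over all genes. Comparisons that share a group are not independent of each other.

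The interaction was called for none of the 10 genes (limma), where 0.00479% of all genes were called, which is 1 gene. At an unadjusted p under 0.05 it was Cd14 alone, 1 of 10, where 3.88% of all genes passed. This counts the brightest probe of each gene, which gave -0.32 for Tlr3. The second Tlr3 probe, in the fit of single probes, gave -0.54 with an unadjusted p of 0.0067 (limma), and was not called. Between KO IL-4 and control vehicle, which differ in genotype and treatment, 5 of 10 were called, 1 higher and 4 lower, where 12.5% of all genes were (6.96% higher and 5.51% lower). These groups were apart for 7 of 10, as for 22.7% of all genes. Cd14 was lower by 1.27, Tlr2 by 1.22, Tlr3 by 1.14 and Tlr7 by 0.40 on the log2 scale, and Tlr8 was higher by 0.52. The Tlr7 call was lost without control vehicle 4, KO IL-4 14 or KO IL-4 15 (adjusted p from 0.0546 to 0.0714, limma). Between control IL-4 and KO vehicle, 3 of 10 were called, 1 higher and 2 lower, where 5.77% of all genes were (2.73% higher and 3.04% lower), with Cd14 at -2.23, Tlr2 at -1.25 and Tlr1 at 0.73. Those groups were apart for 5 of 10, as for 22.8% of all genes.

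The genes that act with these receptors were taken from lists. The genes that these receptors are known to induce were the list with the most calls for IL-4 in control cells. Of 28 such response genes, 22 passed the filter, 9 fell and 1 rose with IL-4 in control cells, where 2.88% of all genes fell and 2.76% rose, with a median log2 fold change of -0.47 beside 0.010 over all genes. The chemokine genes Ccl3 and Ccl4 fell by 1.67 (SE 0.125) and by 1.40 (SE 0.103). In KO cells 5 of 22 fell and none rose, where 1.01% and 1.16% of all genes did (median -0.45), with Ccl3 at -0.74 and Ccl4 at -0.49. With IL-4 present, HDAC3 loss raised 3 and lowered 1, where it raised 2.03% and lowered 1.60% of all genes, and among the 3 were Ccl3 (0.74) and Ccl4 (0.57). The interactions of Ccl3 and Ccl4, 0.92 and 0.91, were not called (adjusted p = 0.431 and 0.296, limma). The other 3 that fell with IL-4 in both genotypes, Cxcl2, Nfkbiz and Marco, gave -0.43, -0.36 and -0.17 for HDAC3 loss under IL-4, not called, and are named here after their values were seen.

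In vehicle, HDAC3 loss raised 1 and lowered 3 of the 22 response genes, where it raised 2.42% and lowered 2.25% of all genes (median -0.23 beside 0.025). The chemokine gene Ccl2 rose by 3.42 (SE 0.217) and Ccl5 fell by 2.51 (SE 0.203) on the log2 scale. Under IL-4 Ccl2 was 3.25 higher and Ccl5 2.36 lower in KO cells. The response genes therefore had called members in both directions with HDAC3 loss.

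Adaptors and kinases downstream of the receptors were mostly not called. Of 36 listed, 35 passed the filter, and IL-4 in control cells lowered 4 and raised 1 (median 0.0014), where 5.64% of all genes were called. Irak3, an inhibitor of receptor signalling, fell by 0.86 (SE 0.0804), Pik3ap1, an adaptor that links the receptors to PI3-kinase, by 0.98 (SE 0.122), Myd88, the shared adaptor, by 0.53 (SE 0.109) and Peli1, an E3 ubiquitin ligase, by 0.47 (SE 0.0969). In KO cells only Irak3 (-0.53) and Pik3ap1 (-0.64) of the 35 were called, both lower, where 2.17% of all genes were called. The value for Myd88 in KO cells was -0.099 (adjusted p = 0.788, limma). HDAC3 loss in vehicle raised 2 and lowered 2 of the 35, with Pik3ap1 at -0.87, where 4.68% of all genes were called. With IL-4 present it lowered 1, Pik3ap1 (-0.53), where 3.64% were called.

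Proteins that fold, deliver or cut the receptors were taken as a list of 19 genes, all of which passed the filter. IL-4 in control cells raised 2, Slc15a3, an endosomal transporter of receptor ligands (1.16, SE 0.178), and Hsp90b1, the chaperone of Toll-like receptors (0.46, SE 0.117), and lowered none, where 5.64% of all genes were called. IL-4 in KO cells gave no call among the 19 (limma), where 2.17% of all genes were called. HDAC3 loss raised Ctsl, a protease of endosomes, by 1.52 (SE 0.148) in vehicle, the 1 gene of 19 called there, where 4.68% of all genes were called. With IL-4 present it raised Ctsl and Pld3, an endosomal exonuclease (0.66, SE 0.156), where 3.64% of all genes were called. The medians ran from 0.037 for IL-4 in control cells to 0.16 for HDAC3 loss under IL-4.

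Accessory and decoy receptors were 15 listed genes, 14 of which passed the filter. IL-4 raised Clec7a, the beta-glucan receptor dectin-1, by 2.04 in control (SE 0.106) and by 0.997 in KO cells (SE 0.113), and lowered Cd180, a relative of Tlr4, by 0.73 (SE 0.134) and by 0.62 (SE 0.143). These were the calls among the 14, where 5.64% of all genes were called in control and 2.17% in KO cells. HDAC3 loss in vehicle raised 3 and lowered none of the 14, where it raised 2.42% of all genes: Clec7a, the scavenger receptor gene Msr1 (0.90, SE 0.0928) and the integrin gene Itgam. Under IL-4 it raised 2 of the 14, Msr1 (0.53) and Itgam (1.85, SE 0.183), where it raised 2.03% of all genes.

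The cytosolic pattern receptors, which detect nucleic acids and cell wall products inside the cell, were the list with the most lower calls for HDAC3 loss. Of 17 listed genes 16 passed the filter, and HDAC3 loss lowered 5 and raised none in vehicle (median -0.028) and again 5 and none under IL-4 (median -0.18), where it lowered 2.25% and 1.60% of all genes. Ifih1, a sensor of double-stranded RNA in the cytosol, fell by 0.89 in vehicle and by 1.09 under IL-4 (SE 0.116). Dhx58 fell by 0.82 (SE 0.102) and by 0.76, and Ddx58, which encodes RIG-I, by 0.71 and by 0.89 (SE 0.136). Zbp1, a sensor of nucleic acids, fell by 0.65 (SE 0.127) and by 0.57. The 4 other Toll-like receptor genes of the lists gave no value, as 1 was named on the array and it did not pass the filter.

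**Figure D4:**
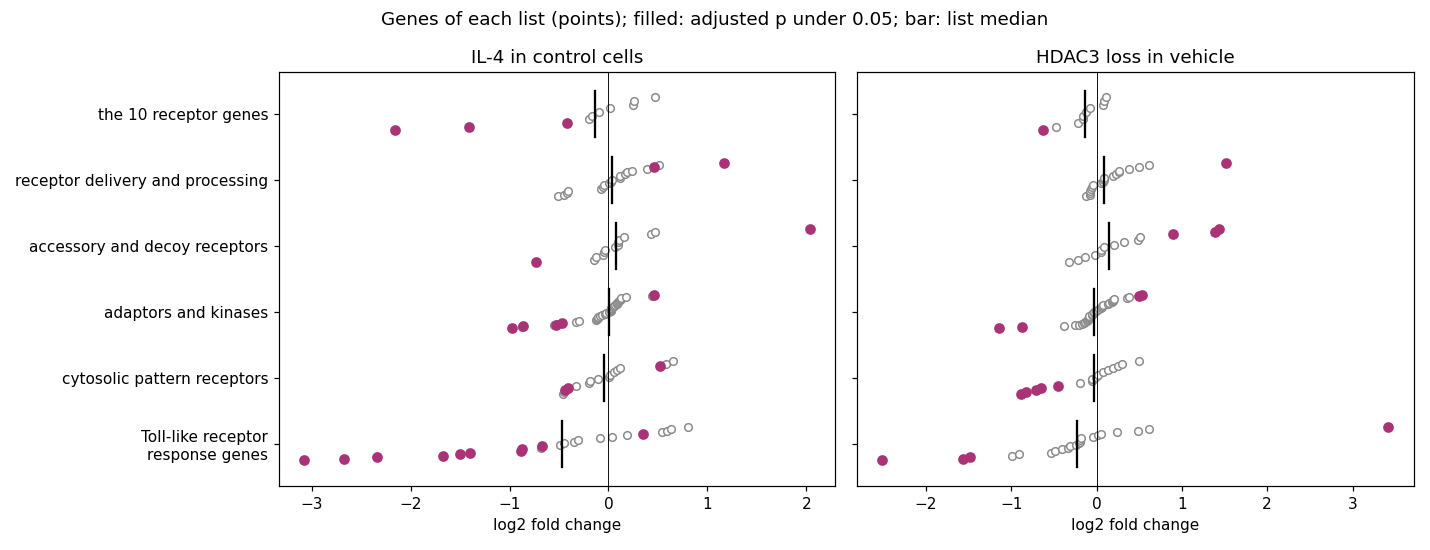
Log2 fold change (horizontal axes) of every gene of 6 lists that passed the filter (points, lists on the vertical axis), for IL-4 in control cells and for HDAC3 loss in vehicle, with list medians as bars. Filled points passed an adjusted p under 0.05 (limma): 9 response genes lie below and 1 above 0 for IL-4, and 5 cytosolic receptor genes lie below 0 for HDAC3 loss.

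Genes known to mark alternative activation served as a check of IL-4. All 7 rose with IL-4 in both genotypes, where 2.76% of all genes rose in control and 1.16% in KO cells. Retnla was at 9.48 (SE 0.231) and Arg1 at 4.02 (SE 0.163) in control cells. Of 10 macrophage markers, all were well above background on every array. Their summed linear level, in multiples of the array's 75th percentile, was 554 to 603 in control vehicle, 546 to 570 in KO vehicle, 486 to 515 in control IL-4 and 537 to 578 in KO IL-4 arrays. With IL-4 in control cells 4 of the 10 fell and 2 rose, where 2.88% of all genes fell and 2.76% rose. Mertk (-0.88) and Fcgr1 (-0.79) were among the markers that fell.

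Markers of other cell types were mostly not called. The summed level of 9 measured neutrophil markers was 8.29 to 15.7 in control vehicle, 8.89 to 14.1 in KO vehicle, 8.08 to 15.8 in control IL-4 and 9.90 to 17.7 in KO IL-4 arrays, and none was called. The 8 B cell markers summed to 2.03 to 2.50, 1.87 to 2.35, 2.15 to 2.31 and 1.96 to 2.39 in the same order. Of 4 that passed the filter 1 was called, Cd79b, lower with HDAC3 loss in vehicle (-0.75), where 2.25% of all genes fell. The summed level of 9 T and NK cell markers was 1.16 to 1.51, 1.39 to 1.59, 1.09 to 1.39 and 1.44 to 1.58 in the same order. Klrb1c passed the filter only through the KO vehicle arrays and was not well above background on any control array, so no fold is given, and no other marker of this list was called in these comparisons. Mast cell, basophil and eosinophil markers summed to 0.82 to 1.15 over all arrays, and stromal and erythroid markers to 4.89 to 6.71, with none called.

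The summed level of the dendritic cell list was higher with IL-4, while its median log2 fold change was -0.20 in control and -0.21 in KO cells. Its 10 markers summed to 28.0 to 29.8 in control vehicle, 29.1 to 31.1 in KO vehicle, 53.5 to 57.7 in control IL-4 and 58.6 to 69.2 in KO IL-4 arrays. Of 7 that passed the filter 1 rose with IL-4, Itgax (3.92 in control and 2.23 in KO cells), an integrin gene that macrophages also express. IL-4 raised 2.76% of all genes in control and 1.16% in KO cells. HDAC3 loss raised 2.42% and lowered 2.25% of all genes in vehicle, and lowered 1.60% under IL-4. Of the dendritic cell markers, it also raised Itgax in vehicle (2.13), and lowered Bst2 in vehicle (-0.82) and under IL-4. The part of these cells in the receptor values was not tested. Of 14 stress and RNA quality genes that passed the filter, IL-4 in control cells raised 4 and lowered 2. Ier3 was at 2.15 and Fos at -0.89, where 2.76% of all genes rose and 2.88% fell. HDAC3 loss in vehicle raised 1 and lowered 2 of the 14, Egr1 (-0.74) and Ddit4 (-0.97), where 2.42% of all genes rose and 2.25% fell. With IL-4 present, HDAC3 loss raised Fos (0.73) and lowered Egr1 (-0.54) and Ddit4 (-1.03), where 2.03% of all genes rose and 1.60% fell. The part of the stress genes in the receptor values was not tested either.

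Across the 13 arrays, which fall into 4 groups and share a scaling, the receptor genes differed in how alike their profiles were. The Pearson r, given as a description without a test, was 0.946 between Cd14 and Tlr2, 0.80 between Tlr2 and Tlr7, and -0.914 between Tlr2 and Tlr8. Between Cd14 and Ly96, which act in 1 complex, it was -0.077, and between Tlr1 and Tlr2 it was -0.438. The genes closest to each called receptor gene were sought among the tested genes, passing over placeholder names such as clone and accession names. The 3 whose levels followed Cd14 most closely were Stk17b (r = 0.987), Map3k5 (0.979) and Pilrb1 (0.974). For Tlr2 they were Ctsc (0.964), Elmo1 (0.963) and Bmf (0.963). For Tlr3 they were Oas1b (0.972), Ifit1 (0.961) and Phf11a (0.958), the first pair being known as interferon-induced genes. For Tlr7 they were Zc3h12d (0.953), Kat2b (0.946) and Ptpro (0.943). For Tlr8 they were Mpp6 (0.925), Arhgef1 (0.915) and Ahcyl2 (0.907), and for Tlr1 H2-Q4 (0.934), Ahrr (0.917) and Xdh (0.913). H2-Q4 belongs to a family of similar sequences, so which member its probe reports is uncertain.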

How the data were processed

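RNA of 13 samples was measured on one-colour Agilent arrays after amplification with a NuGEN kit and Cy3 labelling, per the labels' protocols. The deposited scanner files hold spot intensity on a linear scale, background-corrected with Agilent Feature Extraction 10.5.1.1, per the file headers. The probe positions in these files were taken to be on mm9. The submitters' processing notes name version 9.53 and limma without a version. The authors' deposited value table, also linear intensity, was used as an alternative only.

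Control and outlier-flagged spots were left out, spots of a probe were averaged, and log2(gProcessedSignal) was set relative to the 75th percentile over the probes of its array. A probe was kept if it was well above background on all arrays of some group (29055 of 41174 probes), with the brightest probe per gene. RefSeq accessions named 25097 probes (61.0%) and the others keep the file's name. All 13 arrays entered a fit of group means (limma 3.58.1, R 4.3.3), two-sided, with Benjamini-Hochberg adjustment over 20891 genes. Arrays' number limits the precision. The scripts were checked on made-up arrays with changes planted in the control IL-4 group. For IL-4 in control cells, 14 of 67 planted log2 changes of 0.5 were called. The same fit called 44 of 67 changes of 1 and 59 of 66 changes of 2, beside 13 false calls. A change of the smaller sizes can therefore be present and not called. Promoter windows are RefSeq's (GRCm38.p6), and their coordinates are not mixed with the mm9 probe positions. Replicate numbers name arrays and are not shared between groups.

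The receptor genes and lists were chosen with earlier results of these data known. From each other list, up to 4 genes called for IL-4 in control cells or HDAC3 loss in either medium are named, by smallest adjusted p. One gene chosen in this way is left out of the text. Alternatives were other scalings and background corrections, the authors' table, other probe filters and probe rules, other variance models, slide as a block, fewer arrays and a minimum change. One scaling alternative was added after seeing the data.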

Additional observations from a re-analysis of the deposited data

Results flagged for a closer look

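Ly96 on the control vehicle arrays was picked out because 1 array lies far from the others for its group: control vehicle 4 read 3.37 and the other 3 read 3.28 to 3.29. The gap was 0.908 of the group's range, above Dixon's critical value for 4 arrays. The group's SD was 0.043, the smallest of the 4 groups for this gene. Control vehicle 4 also had the fewest spots well above background (56.2%), and its part in the value was not tested. Chance marks about 1 in 20 groups in this way.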

How the results depend on the processing

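None of the called differences of the receptor genes changed direction under the 29 alternatives with a test. Cd14 and Tlr2 stayed lower with IL-4 in control cells under all 29, and Cd14 in KO cells also (highest adjusted p = 0.0399, limma). For HDAC3 loss in vehicle, 2 genes were called (Tlr3 and Tlr1, both lower) with quantile normalization, normexp with quantile normalization, the authors' table, the filter on all 4 groups, trend and robust variance, or array weights. It was 0 without the 2 arrays of lowest share of spots well above background or with a minimum change of 1, and leaving out 1 array gave 0 to 2. For IL-4 in KO cells, 1 gene was called with median scaling or only the groups compared, and leaving out 1 array gave 1 to 2. Array weights gave 5 for IL-4 in control cells and 5 for control IL-4 against KO vehicle. For HDAC3 loss under IL-4 the count was 0 with only the groups compared or a minimum change of 1. For KO IL-4 against control vehicle it was 3 without the 2 arrays of lowest share or with the minimum change, and leaving out 1 array gave 3 to 5. The cause was not tested, except that a minimum change removes smaller changes and fewer arrays leave fewer to test. Arrays could not be paired by replicate number because the groups share none. Arrays of different groups do share slides, so slide was used as a block instead. With slide as a fixed block, the Tlr7 call for IL-4 in control cells was lost (adjusted p = 0.0614, limma). Signal over background limits the precision of dim probes.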
